A study of Mus musculus with 18 samples.

Results

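The CXC chemokine ligands Cxcl1, Cxcl2, Cxcl3, Cxcl5, Cxcl9, Cxcl10, Cxcl11 and Cxcl16 were followed through RNA-seq of mouse bone marrow-derived macrophages (BMDMs). They were taken by symbol from the 50600 genes of the count table, each matched 1 row, and all 8 were among the 15663 genes that passed the filter on low counts. Of these, 4 attract neutrophils (Cxcl1, Cxcl2, Cxcl3 and Cxcl5), 3 are known as interferon-induced (Cxcl9, Cxcl10 and Cxcl11), and Cxcl16 belongs to neither class. The cells came from the marrow of WT or IRF5 KO mice and were cultured in GM-CSF for 8 days. In each genotype there were 3 groups of 3 libraries: unstimulated, LPS DMSO (1 h with the vehicle DMSO, then 2 h with 100 ng/ml LPS) and LPS defactinib (1 h with 3.5 μM defactinib, then the same LPS). Defactinib inhibits the kinases FAK and PYK2. The labels give DMSO for the unstimulated libraries while their column names mark them as untreated, so whether they received vehicle is not settled. All 6 groups share the GM-CSF culture, and there was no group with defactinib but without LPS. The study's general methods name purchased male C57BL/6J mice without tying them to this marrow, and how the IRF5 deletion was made is not given in the sources used here. The study's reporting summary speaks of 3 biological replicates for cell culture in general, and neither it nor the labels say that the 3 libraries of a group came from separate mice, so the p-values measure the spread between these libraries, which may be technical.

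Chemokines are small secreted proteins that direct the migration of leukocytes through receptors on the target cell. CXCL1, CXCL2, CXCL3 and CXCL5 act on CXCR2 and draw neutrophils, and their genes are known targets of NF-κB in macrophages stimulated through TLR4, the LPS receptor. CXCL9, CXCL10 and CXCL11 act on CXCR3 and draw activated T cells and NK cells. Their genes respond to interferons through STAT and IRF factors, and LPS reaches them in part through interferon-β that the macrophage itself makes. CXCL16 is made as a membrane protein whose receptor is CXCR6, it also binds oxidised lipoprotein, and the proteases ADAM10 and ADAM17 release its soluble form.

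In the coordinates of the count table (mm10), 7 of the genes lay on chromosome 5. The neutrophil-attracting genes lay on the plus strand in the order Cxcl5 (90759360 to 90761624), Cxcl3 (90786103 to 90789600), Cxcl1 (90891241 to 90893115) and Cxcl2 (90903871 to 90905938). The interferon-induced genes lay on the minus strand, with Cxcl9 at 92321347 to 92328079, Cxcl10 at 92346638 to 92348889 and Cxcl11 at 92359544 to 92365485. Cxcl16 lay on chromosome 11 at 70453983 to 70459984, on the minus strand. GENCODE annotates mouse Cxcl11 as a polymorphic pseudogene, so its values are those of an RNA and say nothing of a protein.

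The promoters are shown because NF-κB and IRF or STAT factors read different DNA motifs. The part of these motifs in the levels of the ligands was not tested. RefSeq (GRCm38.p6) promoter windows were matched for 5 of the 8 members, and none was matched for Cxcl5, Cxcl11 and Cxcl16. A window runs from 250 bases before to 50 bases after the transcription start. The stretch from 250 to 31 bases before the start is printed, 5′ to 3′ on the gene's own strand. It lies at chr5:90890995-90891214 (plus strand) for Cxcl1, chr5:90903649-90903868 (plus) for Cxcl2, chr5:90785851-90786070 (plus) for Cxcl3, chr5:92328110-92328329 (minus) for Cxcl9 and chr5:92348920-92349139 (minus) for Cxcl10. Capitals mark matches to GGNNNTTCC (the kB core, read by NF-κB) or to GAAANNGAA (the ISRE core, read by IRF factors), each on either strand.
Cxcl1 promoter: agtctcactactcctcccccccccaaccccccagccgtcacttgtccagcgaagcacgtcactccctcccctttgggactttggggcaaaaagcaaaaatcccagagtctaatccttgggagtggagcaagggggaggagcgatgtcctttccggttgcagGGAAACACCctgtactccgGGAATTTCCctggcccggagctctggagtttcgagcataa
Cxcl2 promoter: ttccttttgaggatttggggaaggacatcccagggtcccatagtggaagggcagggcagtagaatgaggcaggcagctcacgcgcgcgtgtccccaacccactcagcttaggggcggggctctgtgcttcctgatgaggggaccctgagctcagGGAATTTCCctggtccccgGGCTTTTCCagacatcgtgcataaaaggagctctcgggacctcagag
Cxcl3 promoter: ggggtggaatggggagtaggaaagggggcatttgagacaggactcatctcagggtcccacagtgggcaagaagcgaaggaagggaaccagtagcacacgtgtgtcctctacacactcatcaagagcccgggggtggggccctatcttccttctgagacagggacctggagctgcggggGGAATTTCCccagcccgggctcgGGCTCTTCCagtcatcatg
Cxcl9 promoter: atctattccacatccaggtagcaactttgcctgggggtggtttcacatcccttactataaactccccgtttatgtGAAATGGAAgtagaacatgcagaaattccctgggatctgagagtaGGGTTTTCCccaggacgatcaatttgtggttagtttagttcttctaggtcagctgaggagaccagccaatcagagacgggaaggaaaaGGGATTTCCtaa
Cxcl10 promoter: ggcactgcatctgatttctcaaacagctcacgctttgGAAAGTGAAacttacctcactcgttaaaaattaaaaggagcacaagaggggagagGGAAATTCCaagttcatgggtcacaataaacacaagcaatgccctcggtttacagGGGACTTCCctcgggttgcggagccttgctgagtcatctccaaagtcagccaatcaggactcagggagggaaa

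Each of the 5 windows held the kB core at 2 places, and 18.5% of the 32851 RefSeq promoter windows held it at least once. Cxcl1, Cxcl2 and Cxcl3 shared 1 of these matches letter for letter, GGAATTTCC, which begins 70, 96 and 72 bases before the start, respectively. The ISRE core was matched in Cxcl9 (GAAATGGAA, 175 bases before the start) and in Cxcl10 (GAAAGTGAA, 213 bases before), against 8.56% of all windows. It was not matched in Cxcl1, Cxcl2 or Cxcl3, which says only that these letters are not in these windows. GGAATTTCC in these genes and GGAAATTCC in Cxcl10 match the kB core on both strands and were counted as 1 place. No kB match overlapped an ISRE match in the 5 windows.

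**Figure D1:**
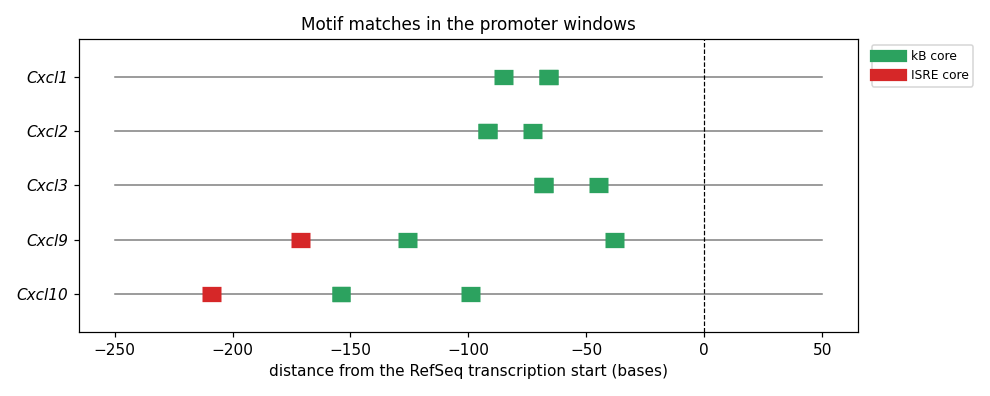
Motif matches in the promoter windows of the 5 members with a RefSeq entry. The x axis is the distance in bases from the transcription start (dashed line), green bars are kB core matches and red bars ISRE core matches. Each promoter carries the kB core at 2 places, and the ISRE core appears in Cxcl9 and Cxcl10.

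Counted read pairs ranged from 39282181 to 61949143 per library. Macrophage markers (8 of 8 above 0 in each group, led by Lyz2) summed to 9566 to 18836 CPM (counts scaled to library size by TMM, so that they compare samples), and markers of T, B and NK cells to at most 1.07 CPM. The 10 neutrophil markers, none of which was at 0 in any group, summed to 62.9 to 85.7 CPM in WT unstimulated and 122 to 237 CPM in WT LPS DMSO, and to 76.3 to 89.6 CPM in IRF5 KO unstimulated and 149 to 186 CPM in IRF5 KO LPS DMSO. The 8 dendritic cell markers, none at 0 in any group, were led by H2-Ab1 and Itgax. They summed to 5179 to 5328 CPM in WT unstimulated and 3693 to 3942 CPM in IRF5 KO unstimulated. The sums were 5464 to 6453 CPM in WT LPS DMSO and 4554 to 6291 CPM in IRF5 KO LPS DMSO. With defactinib they were 4523 to 5351 CPM in WT and 5144 to 5604 CPM in IRF5 KO. The 7 endothelial and platelet markers, led by Vwf and with Gp1bb and Gp9 at or near 0 in every group, summed to 48.6 to 81.8 CPM over the WT libraries and to 36.8 to 40.9 CPM over those of IRF5 KO. The part of these lists in the results was not tested. In bulk RNA, fewer cells of a type and less RNA per cell cannot be told apart. Irf5 itself was counted at 587 to 650.3 CPM in WT unstimulated and 335 to 397 CPM in IRF5 KO unstimulated, and at 434 to 475 CPM in WT LPS DMSO and 345 to 435 CPM in IRF5 KO LPS DMSO. With defactinib it was at 213 to 379 CPM in WT and 353 to 392 CPM in IRF5 KO. These counts cover the whole gene and are no check of the IRF5 KO label, which is taken as given. The genotypes did not overlap before LPS and overlapped after it, and under defactinib the IRF5 KO range was not below that of WT. The library IRF5 KO LPS DMSO replicate 3 stood apart from the other 2 of its group, with a chi-square per gene of 425 to 441 against 2.33 between the other libraries. WT LPS defactinib replicate 3 stood apart to a lesser degree (140.3 and 183, against 84.1), as did WT unstimulated replicate 3 (55.2 and 52.4, against 3.82) and IRF5 KO unstimulated replicate 2 (36.8 and 33.1, against 7.09). The 8 stromal markers summed to 10.1 CPM in WT LPS defactinib replicate 3, the highest sum of the 18 (none was at 0 in that group), and to no more than 4.75 CPM in any WT LPS DMSO library. The part of these libraries' differences in the results was not tested. Leaving out either of the first 2 of these libraries moved some printed differences of a ligand by over 1.5-fold, taken on the fold change itself. There the value without the library is given beside it, and smaller moves are not all given.

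LPS raised all 8 ligands in WT cells, from levels that differed widely before it. Per kilobase of exon (RPKM, the scale used to compare genes), Cxcl3 stood at 128 ± 22.97 (SD, n = 3) and Cxcl16 at 81.5 ± 5.62 in WT unstimulated, Cxcl2 at 13.98 ± 5.54, and each of the other 5 at 3.03 or less. After LPS, Cxcl10 (714 ± 102.2), Cxcl2 (616 ± 116) and Cxcl3 (594 ± 121) were at the top, followed by Cxcl16 (163 ± 11.4), Cxcl1 (75.1 ± 5.29), Cxcl5 (47.0 ± 16.6), Cxcl9 (10.8 ± 2.07) and Cxcl11 (1.90 ± 0.319). All 8 were called higher (edgeR, false discovery rate below 0.05 and log2 fold change beyond 1), as were 11.6% of all tested genes. In none of the 8 did the libraries of the groups overlap, but no share of all genes without overlap is given to set this against.

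Cxcl1, the mouse ligand known as KC, went from nearly silent to abundant. It was at 0.524, 0.338 and 0.371 CPM in the WT unstimulated libraries and at 152, 132 and 139 CPM in WT LPS DMSO. In IRF5 KO the values were 0.545, 0.231 and 0.688 CPM before LPS and 169.6, 170.2 and 134 CPM after it. The log2 fold change was 8.41 ± 0.29 (SE, adjusted p = 1.44e-11) in WT and 8.32 ± 0.28 (adjusted p = 4.55e-11) in IRF5 KO. The libraries of the genotypes overlapped after LPS, and the difference between the responses, WT minus IRF5 KO, was 0.09 ± 0.35 (adjusted p = 0.884), with an interval of -0.60 to 0.78.

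Cxcl2, which encodes MIP-2, was at 23.9, 20.9 and 42.0 CPM in WT unstimulated and at 1527, 1049 and 1244 CPM in WT LPS DMSO. IRF5 KO went from 24.03, 19.6 and 22.9 CPM to 2374, 2334 and 955 CPM. The IRF5 KO library at 955 CPM is replicate 3, below every WT LPS DMSO library, while the other 2 lie above them all. LPS raised Cxcl2 by 5.46 ± 0.36 (log2, adjusted p = 2.65e-08) in WT and by 6.41 ± 0.37 (adjusted p = 3.81e-08) in IRF5 KO. The difference between the responses was -0.95 ± 0.42 (adjusted p = 0.130), and -1.27 (adjusted p = 0.00420) without IRF5 KO LPS DMSO replicate 3, where it was called.

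Cxcl3 was the ligand with the most RNA before LPS and the smallest rise of its class. It was at 401, 399.7 and 539.6 CPM in WT unstimulated and at 2553, 1739 and 1938 CPM in WT LPS DMSO, a log2 change of 2.22 ± 0.36 (adjusted p = 0.000154). In IRF5 KO it was at 748, 431 and 724 CPM before LPS and 946, 914 and 1381 CPM after it, a log2 change of 0.77 ± 0.35 that did not pass (adjusted p = 0.0912). Every WT LPS DMSO library lay above every IRF5 KO LPS DMSO library. The difference between the responses was 1.45 ± 0.49 (adjusted p = 0.0550), just outside the threshold. It was called without IRF5 KO LPS DMSO replicate 3 (1.66, adjusted p = 0.0272), and without IRF5 KO unstimulated replicate 2 (1.66) or WT LPS defactinib replicate 2 or 3 (1.43 each).

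Cxcl5, also called LIX, rose in WT from 4.77, 4.36 and 7.79 CPM to 122, 61.1 and 80.1 CPM (log2 3.96 ± 0.74, adjusted p = 0.000492). In IRF5 KO it went from 6.26, 4.19 and 5.62 CPM to 9.02, 8.27 and 58.3 CPM. The first 2 libraries of this group stood close to the unstimulated level and replicate 3 just below the lowest WT LPS DMSO library. The log2 change of 2.23 ± 0.69 (adjusted p = 0.0223) in IRF5 KO fell to 0.68 (adjusted p = 0.309) without that library, and its call was also lost without any 1 of the 3 IRF5 KO unstimulated libraries (2.09 to 2.36). Cxcl5 also differed from WT after LPS by 1.79 ± 0.67 (WT minus IRF5 KO, adjusted p = 0.0357), and by 3.34 (adjusted p = 0.000334) without it. The difference between the LPS responses was 1.72 ± 0.94 (adjusted p = 0.214), and 3.28 (adjusted p = 0.00352) without it.

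The interferon-induced ligands rose in WT by more than the neutrophil-attracting ones did by the median (log2 8.40, or 8.60 with Cxcl11 taken at the ratio of its counts, against 4.71, and -0.00454 over all tested genes), but the ranges of the classes overlapped. Cxcl10, known as IP-10, was at 2.19, 2.57 and 1.67 CPM in WT unstimulated and at 1818, 1644 and 1362 CPM in WT LPS DMSO. In IRF5 KO it went from 2.60, 2.29 and 2.07 CPM to 180.2, 189 and 576 CPM. Every WT LPS DMSO library was above every IRF5 KO one, of which replicate 3 was the highest. The log2 change was 9.54 ± 0.51 (adjusted p = 4.41e-09) in WT and 7.08 ± 0.46 (adjusted p = 1.67e-07) in IRF5 KO, or 6.30 (adjusted p = 1.82e-11) there without replicate 3. This difference between the responses, 2.46 ± 0.53 (adjusted p = 0.00648), was the only one called among the 8 members, where 6.33% of all tested genes were called in that direction. It was 3.24 (adjusted p = 7.17e-07) without replicate 3, where 5 of the 8 members were called higher and 1, Cxcl2, lower (16.5% and 7.02% of all genes).

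Cxcl9, known as MIG, was far less abundant. It was at 0.524, 0.761 and 0.784 CPM in WT unstimulated and at 31.9, 39.0 and 26.6 CPM in WT LPS DMSO (log2 5.55 ± 0.85, adjusted p = 9.37e-05). In IRF5 KO it was at 0.358, 0.558 and 0.295 CPM before LPS and at 0.969, 0.875 and 7.34 CPM after it. The first 2 of these libraries lay above the unstimulated ones and far below replicate 3, and the call in IRF5 KO (log2 2.94 ± 0.82, adjusted p = 0.0146) was lost without replicate 3 (1.19, adjusted p = 0.204), and without IRF5 KO unstimulated replicate 1 (2.85) or 3 (2.76). The WT level after LPS was higher than that of IRF5 KO by 3.39 ± 0.75 (adjusted p = 0.00183), and by 5.13 (adjusted p = 1.83e-05) without it. The LPS responses of Cxcl9 differed by 2.62 ± 1.12 (adjusted p = 0.120), and by 4.36 (adjusted p = 0.00245) without it.

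Cxcl11 was read from single counts in 4 of the 6 groups. It had 2, 0 and 1 counts in WT unstimulated and 350, 301 and 230 counts (8.12, 7.70 and 5.85 CPM) in WT LPS DMSO. IRF5 KO had 1, 3 and 0 counts before LPS and 6, 15 and 138 counts (0.145, 0.398 and 2.70 CPM) after it, so that 138 of the 159 came from replicate 3. The ratio of the summed, depth-scaled counts was 389-fold in WT (95% exact binomial interval of 133 to 1890.0) and 51.0-fold in IRF5 KO (19.5 to 189.6). These intervals cover counting error only. LPS was called in WT (adjusted p = 2.29e-05) and in IRF5 KO (adjusted p = 0.00337). Without replicate 3 it was still called in IRF5 KO (adjusted p = 0.00298), at 21 counts and a ratio of 11.1-fold (3.75 to 44.5). The test of the difference between the responses gave an adjusted p of 0.348, and 0.0160 without replicate 3.

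Cxcl16 moved least. It was at 253, 258 and 227 CPM in WT unstimulated and at 462, 530.1 and 490.0 CPM in WT LPS DMSO, a log2 change of 1.00 ± 0.23 (adjusted p = 0.00211), at the edge of the fold threshold. Its call was lost without WT unstimulated replicate 3 or WT LPS DMSO replicate 2, where the change fell below the threshold, to as little as 0.94. It was also lost with library size alone (0.63), with no filter on low counts (0.97), with the replicate block (0.998) and with the threshold inside the model. In IRF5 KO it was at 129.6, 148 and 134 CPM before LPS and 173, 173 and 247 CPM after it (0.52 ± 0.23, adjusted p = 0.0781). All 3 IRF5 KO unstimulated libraries lay below all 3 of WT. Cxcl16 was the only member with an unadjusted p under 0.05 between the unstimulated genotypes, with a difference of 0.84 ± 0.23 (adjusted p = 0.0191) that stayed within the fold threshold. The LPS responses of Cxcl16 differed by 0.48 ± 0.32 (adjusted p = 0.301).

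**Figure D2:**
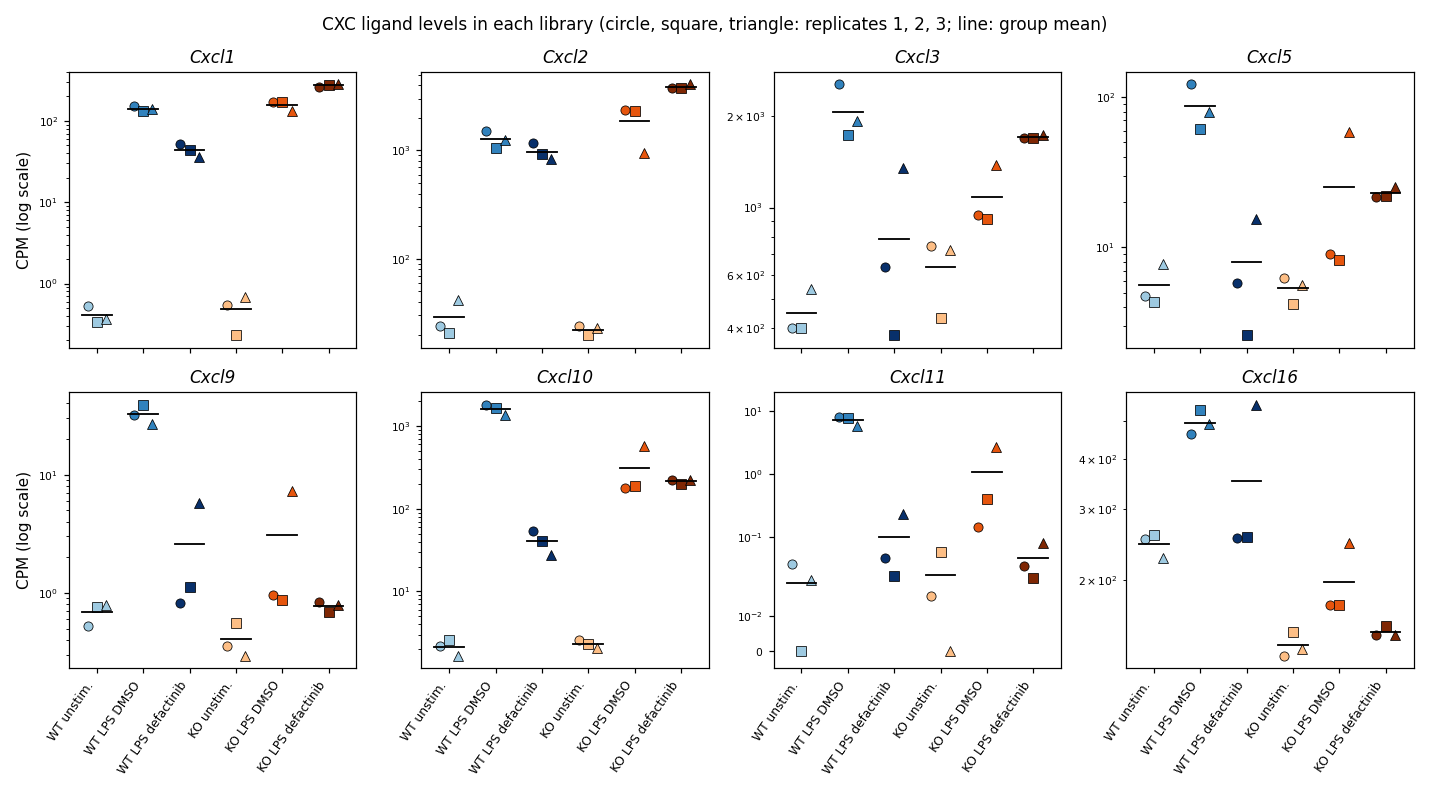
CPM of the 8 ligands in each of the 18 libraries. The y axis is logarithmic (for Cxcl11 linear below 0.02 so that 0 can be shown), circles, squares and triangles are replicates 1, 2 and 3, and lines are group means. Cxcl10 falls from 1362 to 1818 CPM in WT LPS DMSO to 27.3 to 53.7 CPM with defactinib, while IRF5 KO LPS DMSO replicate 3 (triangle) departs from its group in most panels.

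In IRF5 KO cells, 6 of the 8 ligands were called higher after LPS (7.07% of all genes), and 4 of 8 without IRF5 KO LPS DMSO replicate 3, namely Cxcl1, Cxcl2, Cxcl10 and Cxcl11 (9.64% of all genes). Between the unstimulated genotypes edgeR called none of the 8, as did DESeq2 and limma-voom, where 7.31% of all genes were called in either direction. After LPS, 5 of the 8 were higher in WT than in IRF5 KO (14% of all genes). These were the 3 interferon-induced ligands, Cxcl5 and Cxcl16, the last by 1.32 ± 0.23 (adjusted p = 0.000248). The Cxcl5 call was lost without WT LPS DMSO replicate 1 or 3 or either of the first 2 IRF5 KO libraries, down to 1.36. The median difference was 2.71 for the interferon-induced and 0.39 for the neutrophil-attracting ligands, beside -0.0474 over all genes. The first of these is the value of Cxcl11, whose counts were low, while Cxcl9 stood at 3.39 and Cxcl10 at 2.35. Without IRF5 KO LPS DMSO replicate 3 these medians were 4.74 (again the value of Cxcl11) and 0.44, and 6 of 8 were called (20.7% of all genes), Cxcl3 being the added one (1.16, adjusted p = 0.0290).

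Defactinib lowered 6 of the 8 ligands in LPS-stimulated WT cells, as it did 18.6% of all genes, and Cxcl10 was lowered 39.5-fold. All 3 interferon-induced ligands were called lower (median log2 -5.31) and 3 of 4 neutrophil-attracting ones (median -1.54), beside 0.0858 over all genes. Cxcl10 was at 53.7, 40.9 and 27.3 CPM with defactinib, below every WT LPS DMSO library and above every unstimulated one (log2 -5.31 ± 0.42, adjusted p = 1.62e-07). Cxcl9 was at 0.814, 1.13 and 5.75 CPM (-3.67 ± 0.77, adjusted p = 0.000947). Replicate 3 was the high library here, and without it the fall was larger, at -5.04 (adjusted p = 0.000163). Cxcl11 had 2, 1 and 9 counts, against 881 over the WT LPS DMSO libraries. The level with DMSO was 74.6-fold that with defactinib (95% exact binomial interval 42.5 to 145, adjusted p = 6.92e-05). Without replicate 3, which gave 9 of the 12 counts, it was 204-fold (69.7 to 992.6, adjusted p = 0.000168).

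Within the neutrophil-attracting class the effect of defactinib in WT ran from a small part to nearly all of the LPS response. Cxcl1 stood at 51.7, 43.7 and 35.8 CPM, 3.22-fold below its level with DMSO (log2 -1.69 ± 0.20, adjusted p = 6.24e-06). Cxcl5 fell to 5.84, 2.60 and 15.5 CPM (-3.46 ± 0.72, adjusted p = 0.000919), where its libraries overlapped those of unstimulated WT cells. Without replicate 3 the Cxcl5 change was -4.36 (adjusted p = 0.000514). Cxcl3 stood at 637, 378 and 1353 CPM (-1.40 ± 0.35, adjusted p = 0.00354), and without replicate 3, again the highest, the fall was -2.02 (adjusted p = 4.79e-05). Cxcl2 was at 1167, 921 and 833 CPM and overlapped the DMSO libraries. Its difference of -0.39 ± 0.30 (adjusted p = 0.274) has an interval of -0.97 to 0.19. Cxcl16, at 255.4, 255.6 and 547.7 CPM, differed by -0.48 ± 0.23 (adjusted p = 0.0780), and by -0.93 (adjusted p = 6.43e-05) without replicate 3, still within the fold threshold.

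In WT cells given LPS and defactinib, 3 of the 8 ligands were called above the unstimulated level (9.10% of all genes). Against unstimulated WT cells, Cxcl1 was higher by 6.73 ± 0.27 (adjusted p = 5.52e-10), Cxcl2 by 5.07 ± 0.35 (adjusted p = 1.06e-07) and Cxcl10 by 4.24 ± 0.41 (adjusted p = 2.65e-06). The other 5 did not pass. Cxcl3 differed by 0.82 ± 0.35 (adjusted p = 0.0583), Cxcl5 by 0.50 ± 0.68 (adjusted p = 0.553) and Cxcl9 by 1.89 ± 0.78 (adjusted p = 0.0543). These values were 0.19, -0.41 and 0.51 without WT LPS defactinib replicate 3. Cxcl3 was called without replicate 2 of that group (1.16, adjusted p = 0.00683). Cxcl9 was called without replicate 1 (2.34) or 2 (2.25) of that group, without any 1 of the 3 IRF5 KO LPS DMSO libraries (1.88 to 1.90), with DESeq2, with its size factors and with the filter of 5 CPM (1.91 to 1.93).

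In IRF5 KO cells, where defactinib changed few genes (0.760% were called lower), none of the neutrophil-attracting ligands was called lower or higher. Cxcl1 was at 260.0, 279 and 281 CPM with defactinib, above every DMSO library (log2 0.79 ± 0.20, adjusted p = 0.0429, within the fold threshold). Cxcl2 was at 3802, 3778 and 4072 CPM, also above every DMSO library (1.04 ± 0.30, adjusted p = 0.0651), and was called by DESeq2, by limma-voom, and when replicate 1 (1.23) or 2 (1.21) of its control group was left out. Without replicate 3 of that group the Cxcl2 difference was 0.72 (adjusted p = 0.0807). Cxcl3 was at 1701, 1701 and 1735 CPM (0.66 ± 0.35, adjusted p = 0.261). The macrophage markers, led by Lyz2, summed to 17873 to 18836 CPM in IRF5 KO LPS defactinib and to 9610 to 12226 CPM in IRF5 KO LPS DMSO. None of the 8 was called in that comparison. In WT they summed to 10771 to 15278 CPM with defactinib and to 9566 to 10096 CPM with DMSO. There 1 was called higher and 1 lower (10.4% and 18.6% of all genes). The part of these markers in the ligand values was not tested. Cxcl1, Cxcl2 and Cxcl3 lay clear of their DMSO controls, while Cxcl5, at 21.7, 22.1 and 25.4 CPM, lay between replicate 3 and the other 2 of its control group (-0.13 ± 0.65, adjusted p = 0.927). Without replicate 3 the Cxcl5 difference was 1.42 (adjusted p = 0.150).

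Of the interferon-induced ligands in IRF5 KO, Cxcl10 was at 222, 201 and 225 CPM with defactinib (-0.55 ± 0.35, adjusted p = 0.368, interval -1.24 to 0.14). This is above 2 of the DMSO libraries and below replicate 3, and without that library the difference was 0.23 (adjusted p = 0.550). Cxcl9 was at 0.836, 0.694 and 0.797 CPM (-1.99 ± 0.78, adjusted p = 0.143), and the difference was -0.25 without it. Cxcl11 had 2, 1 and 3 counts against 6, 15 and 138. It was the only member called lower (adjusted p = 0.0340), at a ratio of DMSO to defactinib of 28.5-fold (95% exact binomial interval 12.8 to 78.7). Without IRF5 KO LPS DMSO replicate 3 the ratio was 6.19-fold (2.42 to 18.7). This call was lost without it (adjusted p = 0.0613) and without 7 other libraries, each left out in turn. Those are the 3 of WT unstimulated, the 3 of IRF5 KO LPS defactinib and replicate 1 of IRF5 KO unstimulated. Cxcl16 was at 146, 153 and 146 CPM (-0.41 ± 0.23, adjusted p = 0.285).

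**Figure D3:**
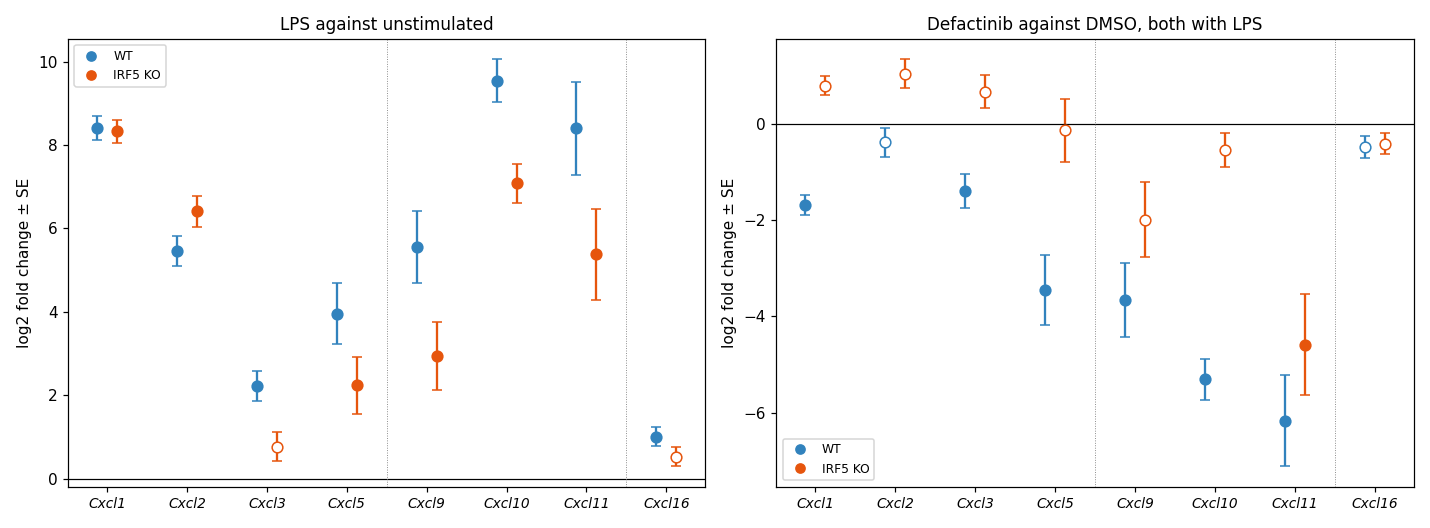
Log2 fold change ± SE of each ligand from edgeR, for LPS DMSO against unstimulated (left) and LPS defactinib against LPS DMSO (right), in WT (blue) and IRF5 KO (orange). Filled points were called, and dotted lines divide the neutrophil-attracting ligands, the interferon-induced ligands and Cxcl16. On the right, WT points for Cxcl1, Cxcl3, Cxcl5, Cxcl9, Cxcl10 and Cxcl11 are filled and lie below 0, and those of IRF5 KO for Cxcl1, Cxcl2 and Cxcl3 lie above it.

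The difference between the genotypes in the defactinib effect (WT minus IRF5 KO) was tested as an interaction. It was called lower for 5 of the 8 ligands (12.3% of all genes), which were all 4 neutrophil-attracting ligands and Cxcl10. The largest was that of Cxcl10 at -4.76 ± 0.52 (adjusted p = 7.43e-06). It became -5.53 (adjusted p = 6.17e-10) when IRF5 KO LPS DMSO replicate 3 was left out. Cxcl5 differed by -3.32 ± 0.95 (adjusted p = 0.0130), Cxcl1 by -2.48 ± 0.28 (adjusted p = 7.93e-06), Cxcl3 by -2.06 ± 0.49 (adjusted p = 0.00438) and Cxcl2 by -1.43 ± 0.42 (adjusted p = 0.0147). The Cxcl5 value was -4.88 without IRF5 KO LPS DMSO replicate 3 and -4.22 without WT LPS defactinib replicate 3, and that of Cxcl3 was -2.67 without the latter. Cxcl9 (-1.68 ± 1.05, adjusted p = 0.229) and Cxcl11 (adjusted p = 0.498) were not called with all libraries. Without IRF5 KO LPS DMSO replicate 3 both were (Cxcl9 at -3.43, adjusted p = 0.00485, and Cxcl11, adjusted p = 0.0190), and 7 of 8 ligands were called (18.8% of all genes). Cxcl9 was also called without WT LPS defactinib replicate 3 (-3.03, adjusted p = 0.0224). For Cxcl16 the difference was -0.07 ± 0.32 (adjusted p = 0.876, interval -0.70 to 0.55). This value depends on WT LPS defactinib replicate 3. Without that library the Cxcl16 change with defactinib was -0.93 (adjusted p = 6.43e-05) in WT and -0.43 (adjusted p = 0.0501) in IRF5 KO.

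The defactinib-treated groups were also compared with each other. Against IRF5 KO LPS defactinib, WT LPS defactinib was lower in 4 of 8 (8.87% of all genes). Cxcl1 was lower by 2.64 on the log2 scale, or 6.25-fold (log2 -2.64 ± 0.21, adjusted p = 1.22e-07), and Cxcl10 was 5.30-fold lower (-2.41 ± 0.37, adjusted p = 0.000127). Cxcl2 (-1.996 ± 0.31, adjusted p = 0.000118) and Cxcl3 (-1.12 ± 0.35, adjusted p = 0.0209) were the other two, the second of which lost its call without WT LPS defactinib replicate 1 or 2 or IRF5 KO LPS defactinib replicate 3 (down to -0.77), and was at -1.74 (adjusted p = 0.000246) without WT LPS defactinib replicate 3. Cxcl16 was higher in WT by 1.25 ± 0.23 (adjusted p = 0.000534, 8.45% of all genes), and by 0.80, within the fold threshold, without WT LPS defactinib replicate 3. Without that library Cxcl5 was called lower (-2.44, adjusted p = 0.0214, against -1.53 ± 0.68 and adjusted p = 0.0903 with it). Cxcl9, at 1.71 ± 0.78 (adjusted p = 0.101), was called higher without WT LPS defactinib replicate 1 (2.17) or IRF5 KO LPS DMSO replicate 3 (1.70), and stood at 0.34 without WT LPS defactinib replicate 3.

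The study reports that LPS-stimulated WT samples treated with defactinib lay close to IRF5 KO samples in a principal component analysis. The values of WT LPS defactinib and IRF5 KO LPS DMSO were therefore also compared directly. Cxcl1 (-1.85 ± 0.20, adjusted p = 5.48e-06), Cxcl10 (-2.95 ± 0.38, adjusted p = 3.20e-05) and Cxcl11 (adjusted p = 0.0108) were called lower in the defactinib-treated WT cells, 3 of 8, beside 10.3% of all genes. Without IRF5 KO LPS DMSO replicate 3 the Cxcl10 difference was -2.18 (adjusted p = 6.54e-07) and the Cxcl11 call was lost (adjusted p = 0.125). The Cxcl11 libraries of the groups overlapped, at 0.0241 to 0.231 CPM in WT LPS defactinib and 0.145 to 2.70 CPM in IRF5 KO LPS DMSO. Cxcl9 stood at 2.57 ± 2.77 CPM in WT LPS defactinib and 3.06 ± 3.70 CPM in IRF5 KO LPS DMSO (n = 3 each). Its difference of -0.28 ± 0.72 has an interval of -1.69 to 1.13, so the test does not show that the levels are equal. It was 1.46 (adjusted p = 0.102) without IRF5 KO LPS DMSO replicate 3 and -1.67 (adjusted p = 0.0999) without WT LPS defactinib replicate 3. Cxcl5 differed by -1.66 ± 0.68 (adjusted p = 0.0740), and by -0.12 (adjusted p = 0.883) without IRF5 KO LPS DMSO replicate 3. Its values in single libraries, given above, overlap between these groups. Cxcl2 differed by -0.96 ± 0.30 (adjusted p = 0.0231), within the fold threshold, and was called without IRF5 KO LPS DMSO replicate 3 (-1.28, adjusted p = 0.000471). Without WT LPS defactinib replicate 3, 5 of 8 ligands were called lower (10.1% of all genes), with Cxcl3 (-1.09, adjusted p = 0.00741) and Cxcl5 (-2.59, adjusted p = 0.0181) added. Cxcl16 was higher by 0.84 ± 0.23 (adjusted p = 0.0105), within the fold threshold. It was called without replicate 3 of IRF5 KO LPS DMSO (1.03) or replicate 1 (1.04) or 2 (1.02) of WT LPS defactinib. The Cxcl16 difference fell to 0.38 (adjusted p = 0.0453) without WT LPS defactinib replicate 3. The comparison of defactinib with DMSO in WT and that of WT with IRF5 KO after LPS share the WT LPS DMSO libraries, and their values are placed side by side here only. Cxcl10 changed by -5.31 with defactinib and was 2.35 ± 0.37 (adjusted p = 0.000117) higher in WT than in IRF5 KO, or 3.12 (adjusted p = 1.39e-08) without IRF5 KO LPS DMSO replicate 3. For Cxcl1 the same values were -1.69 and -0.16 ± 0.20 (adjusted p = 0.500).

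In IRF5 KO cells under defactinib, 5 of the 8 ligands were above the unstimulated level (7.85% of all genes). These were Cxcl1 (9.12 ± 0.29, adjusted p = 1.30e-11), Cxcl2 (7.45 ± 0.39, adjusted p = 7.35e-09), Cxcl10 (6.54 ± 0.45, adjusted p = 2.25e-07), Cxcl5 (2.10 ± 0.69, adjusted p = 0.0184) and Cxcl3 (1.43 ± 0.35, adjusted p = 0.00346). The Cxcl5 call was lost without IRF5 KO unstimulated replicate 2 or 3. Cxcl9 did not pass (0.94 ± 0.86, adjusted p = 0.369), although its 3 libraries lay above the unstimulated ones.

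Each ligand had its own order of groups. Cxcl1 and Cxcl2 were highest in IRF5 KO LPS defactinib (273 ± 11.7 and 3884 ± 163 CPM), with no overlap with the next group, IRF5 KO LPS DMSO, which itself overlapped WT LPS DMSO. Cxcl3, Cxcl5, Cxcl9, Cxcl10 and Cxcl11 were highest in WT LPS DMSO, with no overlap with the next group. For Cxcl16 the 3 WT groups were above the 3 IRF5 KO groups by their means. Its neighbours in that order overlapped, except that IRF5 KO LPS DMSO lay above IRF5 KO LPS defactinib in every library. Neighbouring unstimulated groups overlapped for Cxcl1, Cxcl2, Cxcl3, Cxcl5, Cxcl9, Cxcl10 and Cxcl11.

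Summed per class in RPKM, the neutrophil-attracting ligands were 64.5 ± 4.12% (SD, n = 3) of the RNA of the 7 genes of both classes in WT LPS DMSO, the lowest share of the 6 groups. It was at least 98.9% in every unstimulated library. With defactinib it was 97.4 ± 0.788% in WT and 96.3 ± 0.175% in IRF5 KO. In IRF5 KO LPS DMSO the libraries stood at 94.96%, 94.6% and 78.8%, the last being replicate 3. The sum of the interferon-induced class, nearly all of it Cxcl10, was 727 ± 104 RPKM in WT LPS DMSO and 18.9 ± 5.03 RPKM with defactinib, while that of the neutrophil-attracting class went from 1332 ± 259 to 724 ± 128 RPKM. In IRF5 KO the latter was 1319 ± 312 RPKM with DMSO and 2526 ± 88.7 RPKM with defactinib.

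**Figure D4:**
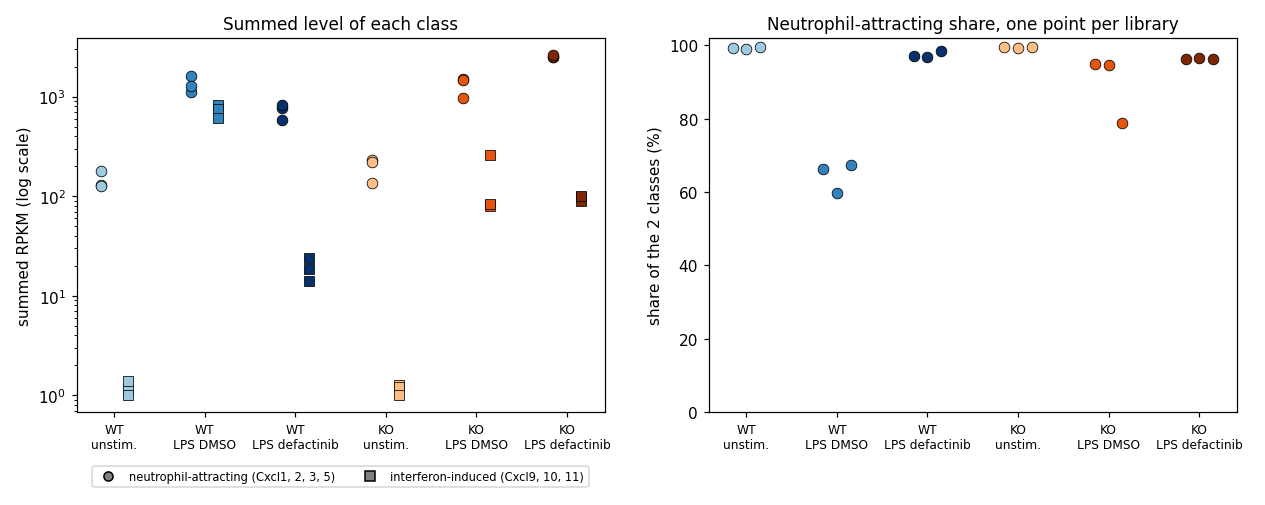
Left, summed RPKM (log scale) of the neutrophil-attracting ligands (circles) and the interferon-induced ligands (squares) in each library. Right, the share of the neutrophil-attracting ligands in the sum of both classes, in percent and with 1 point per library. The WT LPS DMSO libraries sit between 59.8% and 67.4%, and IRF5 KO LPS DMSO replicate 3, at 78.8%, lies between them and the other libraries.

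The genes with the most similar pattern over the 18 libraries differed from ligand to ligand. Likeness was the root mean square difference of log2 CPM, each gene centred on its mean, among 8453 genes. It is a description, and libraries of a group share their treatment. Cxcl1 was nearest to Nfkbiz (0.80) and Ptgs2 (0.81), and Cxcl2 to Tnf (0.82) and Tnfaip3 (0.84). Cxcl3 was nearest to Fpr2 (0.32) and Cd14 (0.33), and Cxcl5 to Acod1 (0.50) and Zc3h12a (0.53). Among the interferon-induced ligands, Cxcl9 was nearest to Cd40 (0.54) and Gbp5 (0.55), Cxcl10 to Il12b (0.96) and Ptgs2 (1.45), and Cxcl11 to Ifit3 (0.88) and Ifit2 (0.90). Cxcl16 was nearest to Tapbp (0.24) and Ogfr (0.25). With each library left out in turn, Tapbp stayed among the nearest genes of Cxcl16 in 12 of 18 cases, Ogfr in 10, Tnfaip3 for Cxcl2 in 12, Ptgs2 for Cxcl10 in 12 and Ifit2 for Cxcl11 in 6, and the other genes named in 17 or 18. Of the 28 pairs of members, Cxcl3 and Cxcl5 were closest (0.87), then Cxcl9 and Cxcl11 (0.90) and Cxcl3 and Cxcl16 (0.94), while Cxcl1 and Cxcl16 were farthest apart (3.80). Closeness did not follow the classes throughout. Cxcl5 and Cxcl9 were at 1.23 and Cxcl1 and Cxcl10 at 1.48, while Cxcl10 was at 2.24 from Cxcl11 and 2.45 from Cxcl9. Cxcl1 and Cxcl2, neighbours on the chromosome, were at 1.09, and Cxcl1 and Cxcl3 at 3.28.

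The genes around the ligands were listed by role. Of 11 NF-κB subunits, IκB proteins and feedback genes, all 11 were called higher with LPS in WT (11.6% of all genes) and 6 in IRF5 KO (7.07%). With defactinib 5 were called lower in WT (18.6% of all genes, median log2 -0.95) and none in IRF5 KO. Without WT LPS defactinib replicate 3 this was 8 of 11 (19.4% of all genes, median -1.18), and without IRF5 KO LPS DMSO replicate 3 defactinib called 1 higher in IRF5 KO (0.611% of all genes). Rel, a DNA-binding subunit, fell by 1.51 (adjusted p = 0.000176) and Bcl3, a nuclear IκB protein, by 3.67 (adjusted p = 3.67e-06) in log2 units when defactinib was added to WT. Nfkbiz, the pattern nearest to Cxcl1, changed by -0.17 (adjusted p = 0.764). Of 11 genes of the interferon pathway, 6 were called higher with LPS in WT (11.6% of all genes), and 2 higher and 1 lower with LPS in IRF5 KO (7.07% and 6.28% of all genes). Without IRF5 KO LPS DMSO replicate 3 these were 1 and 2 (9.64% and 16.6% of all genes). With defactinib in WT 5 were called lower (18.6% of all genes), and 7 without WT LPS defactinib replicate 3 (19.4%), where the median went from -0.69 to -1.19. After LPS 7 were higher in WT than in IRF5 KO (14% of all genes). Ifnb1, which encodes interferon-β, was at 68.5 ± 13.7 CPM in WT LPS DMSO and 21.97 ± 15.6 CPM in WT LPS defactinib (log2 -1.64, adjusted p = 0.00415). Irf1, a factor induced by interferon, was at 578 ± 40.0 CPM and 20.3 ± 2.15 CPM in the same groups (-4.83, adjusted p = 6.89e-07).

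Among 5 genes that act on the stability of chemokine mRNA, 1 was called higher and 2 lower with defactinib in WT (10.4% and 18.6% of all genes). Zfp36, which encodes tristetraprolin, was higher by 2.08 (adjusted p = 0.00150), and Zc3h12a, which encodes Regnase-1, was lower by 3.89 (adjusted p = 7.72e-08), as was Zfp36l2, of the same family as Zfp36, by 1.75 (adjusted p = 6.24e-05). Neither of the CXCL16 proteases, Adam10 and Adam17, was called in any of these comparisons. Of 7 other CXC ligands 3 were tested (Cxcl14, Pf4 and Ppbp), and none of them was called. Of the 8 receptors 3 were tested, of which 1 was called higher and 2 lower with LPS in WT (11.6% and 9.71% of all genes). Cxcr2, the receptor of the neutrophil-attracting ligands, was at 5.43 ± 0.477 CPM in WT unstimulated and 0.514 ± 0.135 CPM in WT LPS DMSO (log2 -3.40, adjusted p = 0.00430), and is also 1 of the 10 neutrophil markers, whose sum was higher after LPS. Cxcr4, the receptor of CXCL12, was lower with LPS in WT by 2.35 (adjusted p = 2.06e-07). Cxcr5, the receptor of CXCL13, was higher with LPS in WT by 2.60 (adjusted p = 0.000951) and lower with defactinib by 3.41 (adjusted p = 0.000200), or 4.39 without WT LPS defactinib replicate 3, at no more than 0.881 CPM in any library. Cxcr3, the receptor of the interferon-induced ligands, was too low to test, at no more than 0.179 CPM in any library.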

How the data were processed

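Total RNA from GM-CSF-cultured BMDMs was sequenced in 18 libraries, 6 groups of 3. Per the labels and the study's methods, the authors aligned the paired reads to mm10 with STAR and counted uniquely mapped pairs per gene, strand-specifically, with featureCounts 1.6.3. The deposited values are these whole-number counts, not normalized, with the coordinates and exon length of each of 50600 genes. No blank or summary line was present.

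Symbols were matched for 50376 gene IDs from an annotation table. Genes were filtered with edgeR's filterByExpr, leaving 15663, and scaled by TMM. edgeR 4.0.16 (R 4.3.3) quasi-likelihood tests, with robust dispersion and 1 mean per group over all 18 libraries, gave 10 comparisons and 2 interactions. P-values were adjusted over all tested genes (Benjamini-Hochberg). A gene was called at an adjusted p below 0.05 with a log2 fold change beyond 1. Errors of log2 fold changes are standard errors, intervals are 95%, and CPM and RPKM errors are SDs. The 8 ligands were all named in the text, with pathway genes from fixed lists and, as nearest patterns, the 2 genes of smallest distance. Members and lists were chosen with earlier results of these data known. Cxcl11 ratios carry counting intervals because several groups had fewer than 10 counts. The tests were run on simulated data first. Alternatives were other scalings and filters, DESeq2 1.42.0, limma-voom (limma 3.58.1), a replicate block, other fold thresholds, fits on the compared groups alone and leaving out each library. Promoter sequences are from RefSeq.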

Additional observations from a re-analysis of the deposited data

Results flagged for a closer look

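The effect of defactinib on LPS-stimulated cells differed between the genotypes for 5 of the 8 ligands by the interaction test of edgeR (WT minus IRF5 KO). The difference was -2.48 for Cxcl1, -1.43 for Cxcl2, -2.06 for Cxcl3, -3.32 for Cxcl5 and -4.76 for Cxcl10 on the log2 scale. Without IRF5 KO LPS DMSO replicate 3 the same 5 values were -2.38, -1.11, -2.28, -4.88 and -5.53, and each was still called. With the fold threshold tested inside the model, those of Cxcl1 and Cxcl10 were still called and those of Cxcl2 (adjusted p = 0.312), Cxcl3 (adjusted p = 0.0660) and Cxcl5 (adjusted p = 0.0702) were not.

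The effect of LPS differed between the genotypes for Cxcl10, by 2.46 on the log2 scale in the same kind of test. This was called in each fit that left out 1 library, but not when the fold threshold was tested inside the model.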

How the results depend on the processing

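Counts of called ligands and class medians gave 48 results, of which 13 moved without IRF5 KO LPS DMSO replicate 3 and 7 moved or reversed without WT LPS defactinib replicate 3. Cxcl11 is limited by its counts. Under the alternatives other than left-out libraries, 446 of their values kept direction and size, 32 moved and 2 reversed. Library size alone moved the median of all genes by -0.38 (log2) for LPS in WT, the most of the 12 comparisons, and the neutrophil-attracting median to 4.34 (WT, LPS), 4.42 (IRF5 KO, defactinib against unstimulated) and -1.94 (genotype by defactinib).

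With a filter of 5 CPM Cxcl11 was not tested, so the interferon-induced medians rest on 2 genes. They became -0.30 (WT against IRF5 KO under defactinib, a reversal), -1.62 (defactinib-treated WT against DMSO-treated IRF5 KO), 3.72 (IRF5 KO defactinib against unstimulated) and -3.13 (genotype by defactinib). In fits on the compared groups alone Cxcl11 was likewise not tested in the first 3, which gave -0.32 (reversed), -1.61 and 3.74. That setting also left 3 ligands called higher with LPS in IRF5 KO, and 3 in WT against IRF5 KO after LPS. limma-voom gave medians of 3.99 (neutrophil-attracting, LPS in IRF5 KO) and -2.90 (interferon-induced, genotype by defactinib), whose cause was not tested.

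For defactinib in IRF5 KO, the 1 ligand called higher was Cxcl2 by DESeq2 and by limma-voom, and Cxcl1 without a fold threshold. In that comparison 0 were called lower without the filter on low counts, with that of 5 CPM, by limma-voom, with the threshold inside the model and on the compared groups alone. Without a fold threshold 1 ligand was higher in unstimulated WT than IRF5 KO, and 1 in defactinib-treated WT than in DMSO-treated IRF5 KO. With the threshold inside the model 2 were higher in WT than IRF5 KO after LPS, 0 under defactinib, 3 in IRF5 KO defactinib against unstimulated, 0 in genotype by LPS, and 2 were lower in genotype by defactinib. For genotype by LPS, 2 were called higher with the 5 CPM filter, DESeq2, limma-voom and the compared groups alone.

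Replicate numbers did not pair the libraries (45 same-numbered pairs, median r = 0.00455, 4 of them above 0.1). With the replicate block, 3 ligands were called higher in genotype by LPS, and no other count of called ligands moved by over 1.5 times. The added ones were Cxcl3 (1.46) and Cxcl9 (3.18), Cxcl5 was newly called lower in WT under defactinib against IRF5 KO with defactinib (-1.85) or DMSO (-1.55), and Cxcl16 lost its call for LPS in WT (0.998).

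Leaving out 1 library at a time gave these ranges. An interferon-induced median is the middle of 3 genes, and the values 3.34, 6.61, 0.92 and 4.74 that follow are those of Cxcl11. With LPS, the neutrophil-attracting median ran from 4.48 to 5.04 in WT and from 3.71 to 4.46 in IRF5 KO, and the interferon-induced one from 3.34 to 6.61 in IRF5 KO. With defactinib in IRF5 KO, 0 to 1 ligands were higher and 0 to 1 lower, with an interferon-induced median of -2.44 to -0.25. Between genotypes that median ran from -0.19 to 0.92 unstimulated (0.92 without IRF5 KO unstimulated replicate 2) and from 2.18 to 4.74 after LPS. Under defactinib it ran from -0.26 (without WT LPS defactinib replicate 3) to 1.68, with a neutrophil-attracting one of -2.16 to -1.53 and 0 to 2 ligands higher. Defactinib-treated WT against DMSO-treated IRF5 KO gave 0 to 1 higher, 3 to 5 lower, and medians of -1.41 to -0.76 (neutrophil-attracting) and -3.23 to -1.43 (interferon-induced). Against unstimulated, WT defactinib gave 3 to 5 higher and an interferon-induced median of 0.85 to 3.06, and IRF5 KO defactinib one of 0.77 to 2.02. Genotype by LPS gave 1 to 5 higher, 0 to 1 lower, and medians of 0.57 to 1.04 and 2.18 to 4.36. Genotype by defactinib gave an interferon-induced median of -3.61 to -1.20.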
